A study of Bos taurus with 27 samples.

Results

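Bovine embryos made by in vitro fertilisation (IVF) were compared at 2 times within the 8-cell stage, the 8-cell embryo and the late 8-cell embryo, by sequencing polyadenylated RNA. The comparison used 15 of the 27 libraries of the series: 8 of 8-cell IVF embryos (replicates 1 to 8) and 7 of late 8-cell IVF embryos (replicates 2 to 8). The remaining late library, replicate 1, was left out because its expression profile resembled that of the 8-cell group. Its own values are given beside the results, and counts are given again with it. In both groups the embryos were F1 hybrids of the cattle species Bos taurus and Bos indicus, grown in SOF medium under oil at 38.5 C. The labels give neither the hours after fertilisation nor the number of embryos or blastomeres behind a library. The remaining 11 libraries came from Bos taurus parthenotes at the 8-cell stage, embryos activated without sperm, and entered no test here.

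An early embryo lives at first on RNA and protein that the oocyte stored while it grew. Stored transcripts are then degraded, and transcription from the embryo's own genome takes over, a change called the maternal-to-zygotic transition. In cattle the major wave of embryonic genome activation falls around the 8-cell stage, so an early and a late sample of that stage can lie on either side of it. The deposited values are FPKM (fragments scaled by transcript length and by the mapped fragments of the library) for assembled transcripts, whose identifiers give the number of a locus followed by that of the transcript. The files pair no identifier with a gene, and 0 were matched to the RefSeq gene table, so neither gene names nor sequences are given. For the same reason the stage named in the labels could not be checked against marker genes. The value used for a locus is that of a single transcript, the one with the highest average over the series.

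Late replicate 1 stood apart from the other late libraries before any test. Over the 15203 loci tested, late replicates 2 to 8 had a mean Spearman correlation of 0.709 to 0.811 with the other late libraries and of 0.207 to 0.411 with the 8-cell libraries. Late replicate 1 had a mean correlation of 0.332 with the late libraries and 0.759 with the 8-cell libraries. Those 8-cell libraries had mean correlations of 0.841 to 0.865 among themselves. A locus was tested if 4 or more of the 15 libraries reached 1 FPKM, so it could pass through 1 group alone. Of the 15203 loci, 6430 reached 1 FPKM in at least 4 libraries of both groups. That filter favours low correlations between the groups, and late replicate 1 took no part in it. The correlations chose the libraries and are a description. Because a library was left out for its profile, p-values of the fit on 15 libraries are not free of that choice, and the fit with late replicate 1 stands beside it.

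Total read numbers cannot be read from FPKM, but whole-read steps among low values gave depths relative to the median library of the series. Relative depth ran from 0.694 to 0.906 in 8-cell IVF and from 0.337 to 1.67 in late replicates 2 to 8, with the lowest value in late replicate 6. Each other late library used, from 1.06 in replicate 8 upward, was deeper than every 8-cell library. Depth thus largely went with the comparison, and its part in the differences between the groups was not tested. Late replicate 1 was at 0.819. In the labels the identifiers of the 8-cell libraries begin with 18062 and those of the late libraries and parthenotes with 19058. That prefix separates the same libraries as the comparison, so the prefix and the time within the stage cannot be told apart from these 2 groups. The labels do not state that replicates were separate cultures, so a p-value here reflects the spread among libraries, which may be technical.

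Most loci with at least 1 FPKM in 4 or more libraries differed in level between the 2 times. At an adjusted p under 0.05 (limma on log2(FPKM + 1), adjusted by Benjamini and Hochberg over 15203 loci), 4962 loci stood higher in late embryos and 6559 stood lower, which is 75.8% of those tested. Higher loci were 32.6% and lower loci 43.1% of the tested loci. The filter can be passed through 1 group alone, which favours such calls. With no filter on low values the fit called 14776 of 75839 loci, or 19.5%. With late replicate 1 included as its label has it, 4574 were higher (30.1%) and 5953 lower (39.2%), 69.2% of the same loci. Of the loci called without it, 10441 were also called with it in the same direction, 1080 were not called, and 0 changed direction. The median log2 fold change was 1.39 among higher loci, -1.14 among lower loci and -0.29 over all loci tested. A fold of at least 2 was passed by 3644 higher and 3995 lower loci, 50.2% of those tested, or 42.9% with late replicate 1. A fold of at least 8 was passed by 452 higher and 173 lower loci, 4.11% of those tested. The latter counts were 265 and 102, or 2.41%, with late replicate 1. Among the 3682 loci not called, 2392 had a 95% confidence interval of the fold that lay within a fold of 2 either way. How many intervals are this narrow depends on the constant added to FPKM before the logarithm, here 1. Over all loci tested, called or not, 3110 had such an interval with a constant of 1, 1063 with 0.1 and 10925 with 5. Of 32 loci not called at a mean of 100 FPKM or more, 17 had one. The count of 2392 thus does not show that weakly expressed loci kept their level.

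**Figure D1:**
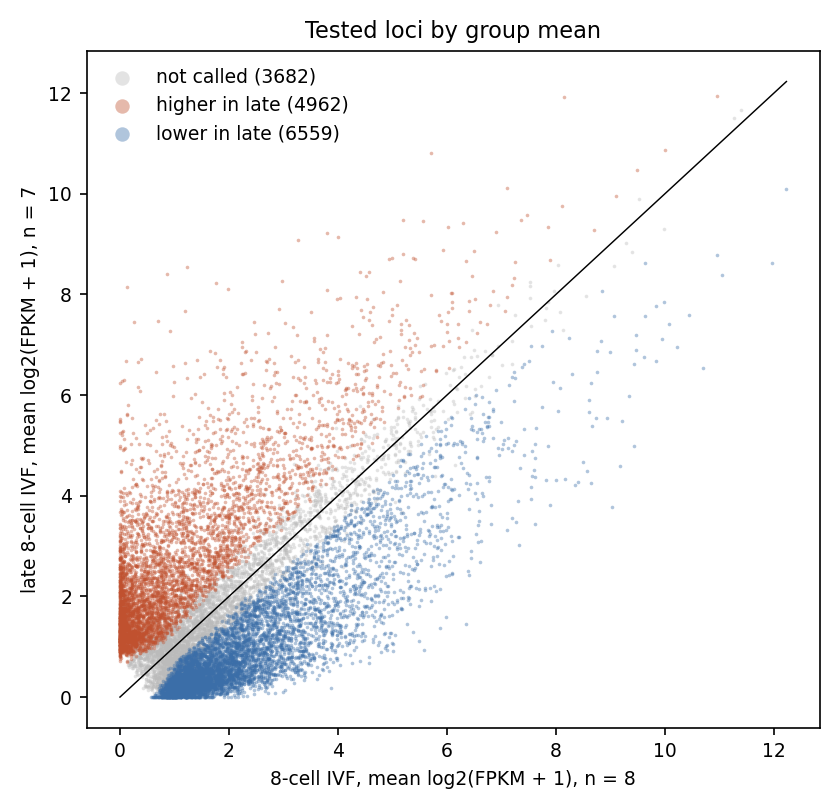
Mean log2(FPKM + 1) of each tested locus in 8-cell IVF (x axis, n = 8 libraries) and in late 8-cell IVF (y axis, n = 7 libraries), with the line of equal level. The 4962 loci called higher lie above the line and the 6559 called lower lie below it, with 3682 loci not called between them.

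The separation was also read library by library, first over all tested loci without a model. In 5679 loci, 37.4% of those tested, the 7 late and 8 8-cell libraries did not overlap: late values lay wholly above in 2552 and wholly below in 3127. With late replicate 1 the count was 1557, or 10.2%, made of 486 above and 1071 below. Among the 4962 loci called higher, 51.4% had 7 late libraries above every 8-cell library, 23.04% had 6 and 14.1% had 5. Among the 6559 called lower, 47.7% had 7 late libraries below every 8-cell library, 18.95% had 6 and 13.2% had 5. In 553 of the lower loci none of the 7 late libraries was below the 8-cell range. In 548 of these an 8-cell library was listed at 0, and no value can lie below that. The called loci were chosen by a test on these same libraries, which favours such separation, so these shares are a description. Late replicate 1 was outside that fit. It lay above every 8-cell library at 19.9% of the higher loci and below each at 27.6% of the lower loci.

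MSTRG.6736, assembled with 12 transcripts, had the largest rise among loci at 10 FPKM or more in every late library used. In the 8-cell libraries its lowest, median and highest levels were 0, 0.0285 and 0.686 FPKM. In late replicates 2 to 8 they were 137.6, 346 and 473 FPKM. The groups did not overlap, and each of the 7 late libraries was above 100 FPKM. The log2 fold change was 8.02 (SE 0.27, limma, adjusted p = 8.4e-13). Late replicate 1 was at 0.406 FPKM, inside the 8-cell range, and with it the log2 fold change was 7.06 (SE 0.87, limma, adjusted p = 9.6e-06).

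MSTRG.28318, with 2 transcripts, was the next by size of rise. It ran from 0 to 14.03 FPKM in the 8-cell libraries, with a median of 0.175, and the high value was that of replicate 5. Its lowest, median and highest levels in late replicates 2 to 8 were 122, 374 and 742 FPKM. Every late library used was thus above the highest 8-cell library. The log2 fold change was 7.54 (SE 0.53, limma, adjusted p = 3.6e-09). In late replicate 1 this locus was listed at 0, and with that library the change was 6.49 (SE 1.04, limma, adjusted p = 6.5e-05).

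MSTRG.59785, with 4 transcripts, had the largest fall among loci at 10 FPKM or more in every 8-cell library. Its lowest, median and highest levels were 356, 505 and 887 FPKM in the 8-cell libraries and 0.757, 14.996 and 56.9 FPKM in late replicates 2 to 8. The level left in late embryos differed widely, from 0.757 FPKM in replicate 2 and 2.61 in replicate 6 to 52.7 in replicate 8 and 56.9 in replicate 5. The log2 fold change was -5.26 (SE 0.62, limma, adjusted p = 1.2e-06). Late replicate 1 was at 656 FPKM, within the 8-cell range, and with it the change was -4.56 (SE 0.85, limma, adjusted p = 0.00021).

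MSTRG.40885, with 3 transcripts, was the next by size of fall. The 8-cell libraries held 32.15 to 82.7 FPKM with a median of 43.7, and late replicates 2 to 8 held 0 to 4.55 FPKM with a median of 0.501. The groups did not overlap, with late replicate 2 listed at 0 and late replicate 8 the highest of the late libraries. The log2 fold change was -4.63 (SE 0.35, limma, adjusted p = 8e-09). Late replicate 1, at 33.8 FPKM, was again within the 8-cell range, and with it the change was -4.10 (SE 0.57, limma, adjusted p = 2.1e-05). At these 4 loci the tested transcripts of a locus moved together: 12 of 12, 2 of 2, 4 of 4 and 3 of 3 passed in the direction of the locus. Over all transcripts tested 37.6% were higher and 41.2% lower. The loci were chosen for their change and transcripts of a locus share reads, so nothing is read from that count.

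**Figure D2:**
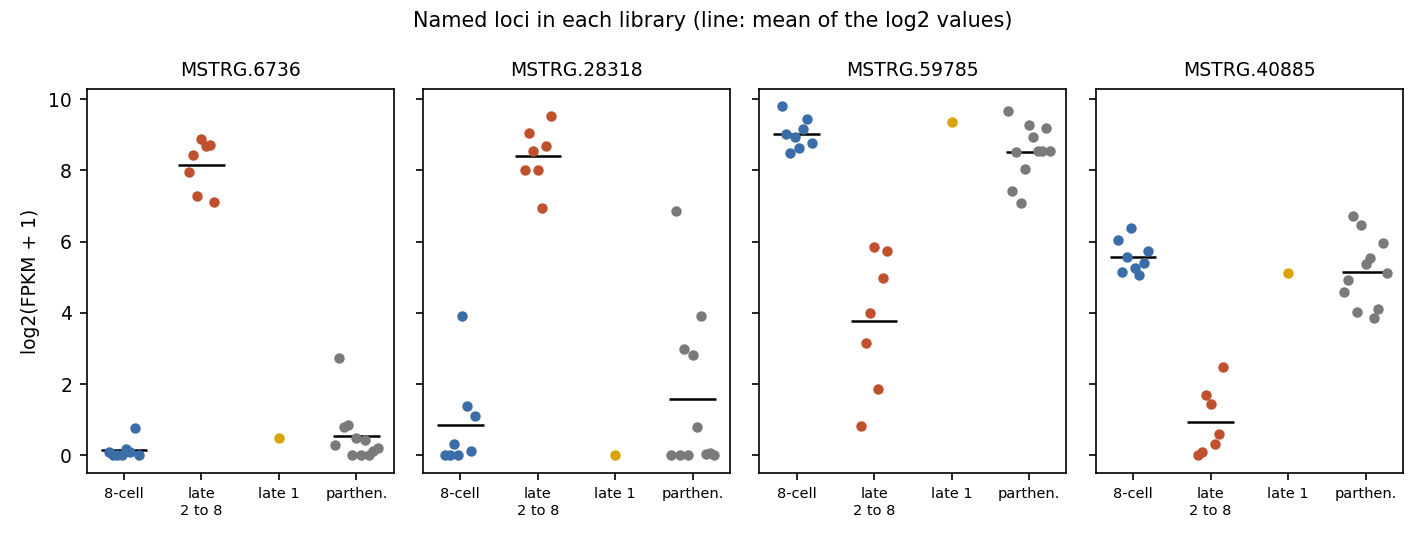
Level of the 4 named loci, as log2(FPKM + 1), in each library of the 8-cell IVF group (8), late replicates 2 to 8 (7), late replicate 1 and the parthenotes (11), with a line at the mean. Late replicates 2 to 8 do not overlap with the 8-cell libraries at any of the 4, and late replicate 1 lies within the 8-cell range at each.

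Presence and absence gave sets of similar size in both directions. At a minimum of 1 FPKM, 3567 loci were present in all 8 of the 8-cell and all 7 of the late libraries. A set of 646 loci was present in all 7 late libraries and in no 8-cell library, and a set of 557 in all 8 of the 8-cell libraries and in no late library. The first of these sets reached higher levels: its median locus had a late mean of 4.77 FPKM, 132 of its loci had a mean of 10 FPKM or more and the highest had 313 FPKM. The set lost in late embryos had a median 8-cell mean of 2.48 FPKM, 2 loci at 10 FPKM or more and a highest mean of 14.6 FPKM. Both sets were chosen on these libraries, and the libraries outside the choice held the following. Of the 646 late loci, late replicate 1 had 59 at 1 FPKM or more, and the parthenotes had from 28 to 143 each, the most in parthenote replicate 2. Of the 557 loci lost, late replicate 1 had 439 at 1 FPKM or more and the parthenotes had from 333 to 534. Of 75839 loci above 0 in some of the 15 libraries, 1385 went from a group median under 0.1 FPKM to at least 1 FPKM. A further 1355 went the opposite way. In late replicate 1, 1218 of the 1385 were under 0.1 FPKM and 584 of the 1355 were at 1 FPKM or more.

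The shares of higher and lower loci differed with the level of a locus. Among 7357 loci with a mean under 2 FPKM over the groups, 27.3% were higher and 46.5% lower in late embryos. Among 5519 loci at 2 to 10 FPKM, 35.8% were higher and 41.2% lower. At 10 to 100 FPKM, 887 of 2129 loci were higher and 786 lower, a majority that turned to 809 higher and 888 lower under quantile normalization. At 100 to 1000 FPKM, 87 of 188 loci were higher and 71 lower, and at 1000 FPKM or more 4 of 10 were higher and 4 lower. Differences between these classes were not tested. The number of transcripts assembled at a locus went with smaller differences: 32.2% of the 6673 loci with 1 transcript were higher and 40.8% lower, and of the 3484 loci with 5 to 19 transcripts 33.96% were higher and 44.3% lower.

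**Figure D3:**
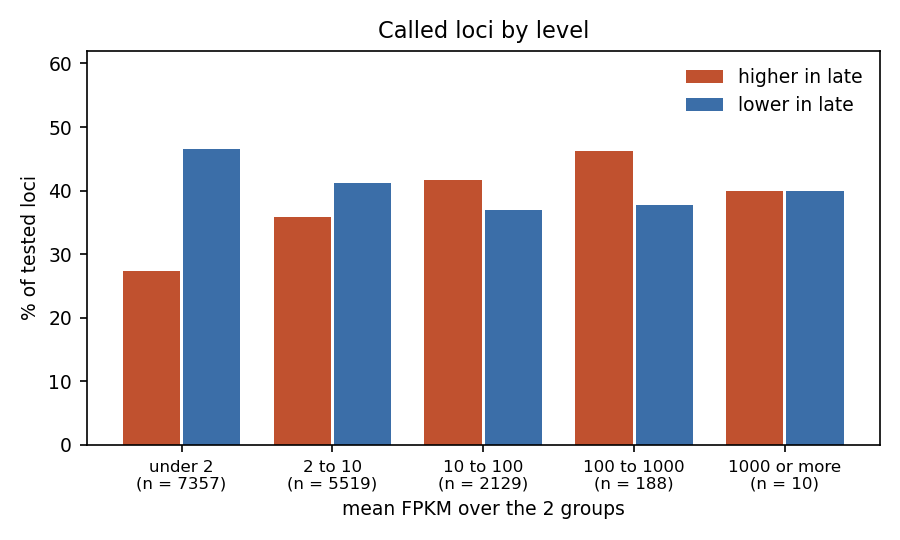
Share of tested loci (%) called higher or lower in late embryos, by the mean FPKM of a locus over the 2 groups (n loci under each class). Lower loci prevail under 10 FPKM, with 46.5% against 27.3% in the lowest class, and higher loci are the larger share from 10 to 1000 FPKM on the deposited scale.

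The most abundant part of the transcriptome was exchanged to a large extent. Of the 100 loci with the highest median in 8-cell embryos, 40 were also among the 100 highest in late embryos. The 100 highest of the 8-cell stage held 39.1% ± 2.09 (SD, n = 8) of the FPKM sum there and 23.4% ± 2.32 (SD, n = 7) in late embryos. These loci held 39.04% in late replicate 1. In the parthenotes they held from 22.1% to 39.3%, the lowest of which is below the late mean. By limma 69 of the 100 loci were lower in late embryos and 12 higher. Over all tested loci 43.1% were lower and 32.6% higher, and 75.8% were called either way. The median level of the 100 highest of the 8-cell stage went from 372 to 131 FPKM, and 2 of them had a late median under 10 FPKM. The 100 highest of late embryos held 34.2% ± 2.26 (SD, n = 7) there and 25.5% ± 1.99 (SD, n = 8) in 8-cell embryos, and 22.7% in late replicate 1. Of these 70 were higher in late embryos and 10 lower, and 11 had an 8-cell median under 10 FPKM. The lists were chosen by level in the same libraries, which favours a fall in the first and a rise in the second.

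Falls were mostly partial. Of 1207 loci called lower with an 8-cell median of 10 FPKM or more, 83.3% had a late median under 50% of the 8-cell median, 21.96% had one under 10% and 0.58% one under 1%. The median locus kept 22.3% of its 8-cell level. Rises started from a wide range of levels. Of 1364 loci called higher with a late median of 10 FPKM or more, 90.1% had an 8-cell median under 50% of the late one, 36.5% under 10% and 7.77% under 1%. The median of these loci was already at 16.7% of its late level in 8-cell embryos. These are ratios of FPKM, that is of shares of each library's RNA, so a fall in share and a loss of molecules cannot be told apart, and fewer cells and less RNA per cell cannot be told apart either.

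How far the abundant loci had fallen differed between the late libraries. Over the 117 loci called lower with an 8-cell median of at least 100 FPKM, the median locus was at 8.41% of its 8-cell level in late replicate 2, 11.2% in replicate 6 and 14.2% in replicate 3. It was at 20.6% in replicate 5, 26.99% in replicate 7, 29.6% in replicate 4 and 36.3% in replicate 8. Late replicate 1 was at 92.7%, with quartiles of 57.9% and 139.5%, wider apart than in any 8-cell library. The 8-cell libraries set the reference median, which narrows their own quartiles. Parthenotes, which did not set it, also had quartiles wider apart than any 8-cell library. Those quartiles ran from 84.3% and 112.7% in parthenote replicate 10 to 73.3% and 125.2% in parthenote replicate 6. In each parthenote they were closer together than in late replicate 1. The median locus was at 47.0% in parthenote replicate 4, with quartiles of 35.2% and 71.6%. In the other parthenotes it was at 80.4% (replicate 2) to 101.5% (replicate 9). For the 153 loci called higher with a late median of at least 100 FPKM, the median locus stood at 10.3% to 20.9% of the late level in the 8-cell libraries and at 7.51% in late replicate 1. The late libraries are not ordered by this measure, since the late level is a median over those libraries themselves.

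**Figure D4:**
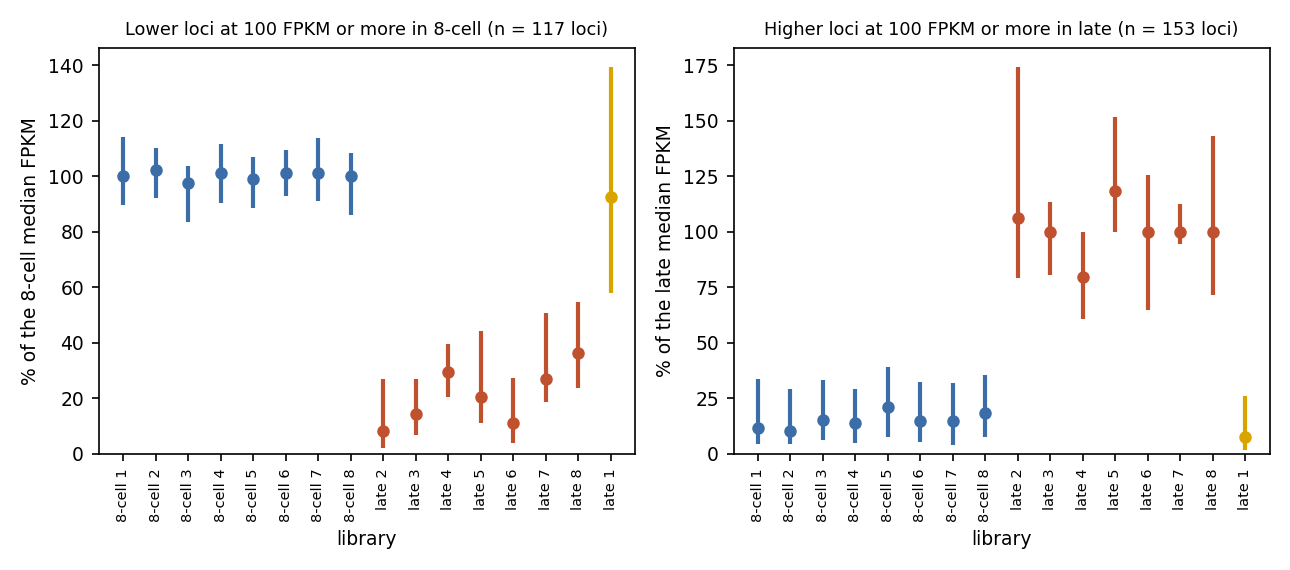
Left, 117 loci called lower with an 8-cell median of at least 100 FPKM, as a percentage of that median; right, 153 loci called higher with a late median of at least 100 FPKM, as a percentage of that median; points are medians over loci and bars are quartiles, for each library. The late libraries run from 8.41% to 36.3% on the left, while late replicate 1 is at 92.7% on the left and 7.51% on the right. The 8-cell libraries lie near 100% on the left, and late replicates 2 to 8 on the right, because they set those medians.

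Each library was next placed by loci called without it. The filter on low values still used all 15 libraries of the comparison, but not late replicate 1 or the parthenotes. The transcript standing for a locus was chosen over all 27 libraries. The places are thus not wholly free of the library placed. For a library left out of the fit, its place at a called locus with a fold of at least 2 was set at 0 for the 8-cell mean and 1 for the late mean of the other libraries, on the log2(FPKM + 1) scale. At higher loci the 8 8-cell libraries had median places from -0.036 to 0.029, and the 7 late libraries from 0.842 (replicate 8) to 1.09 (replicate 5). At lower loci the 8-cell libraries ran from -0.093 to 0.084 and the late libraries from 0.745 (replicate 8) to 1.23 (replicate 2). The late library whose profile resembled the 8-cell group had been left out beforehand, so the gap between the groups is set in part by that choice. Late replicates 4 and 8 lay short of the late mean at lower loci, at 0.756 and 0.745, and replicates 2 and 6 beyond it, at 1.23 and 1.202. At higher loci replicate 6 was at 0.846, with replicate 8 the lowest of the late group. Replicate 6 is also the shallowest library. Over higher loci at 10 FPKM or more in late embryos, replicates 8, 4 and 6 were the lowest, at 0.883, 0.899 and 0.930, and replicates 2 and 5 the highest, at 1.05 and 1.099. Over lower loci at 10 FPKM or more in 8-cell embryos, replicates 8 and 4 were again the lowest, at 0.658 and 0.697.

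Late replicate 1 lay on the late side of the midpoint more often at lower than at higher loci. Over all loci placed, the same held for each 8-cell library and each parthenote. At loci of 10 FPKM or more it held for late replicate 1 but not for all of those libraries. At higher loci the median place of late replicate 1 was -0.022. There 6.37% of loci lay on the late side of the midpoint, where the 8-cell libraries had 1.16% to 5.34%. At lower loci its median place was 0.130 and 25.1% of loci lay on the late side, against 5.43% to 13.1% in the 8-cell libraries. Where the group with the higher level averaged 10 FPKM or more, those shares were 6.59% and 17.6% in late replicate 1. They were 0.84% to 4.77% and 1.30% to 4.45% in the 8-cell libraries, and 3.56% to 21.1% and 2.56% to 32.1% in parthenotes. At these levels the share was larger at higher than at lower loci in 8-cell replicates 4, 5, 6 and 8. So it was in parthenote replicates 2, 3, 5, 6, 7, 8, 10 and 11. Parthenotes, whose identifiers carry the prefix of the late libraries, had median places from -0.015 to 0.114 at higher loci and from -0.045 to 0.349 at lower loci. The highest median places were those of parthenote replicate 2 at higher loci and of parthenote replicate 4 at lower loci. At lower loci parthenote replicates 4, 2 and 8 lay above late replicate 1, at 0.349, 0.198 and 0.175. The late-side shares of parthenotes ran from 4.53% to 17.9% at higher loci and from 5.98% to 37.4% at lower loci.

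**Figure D5:**
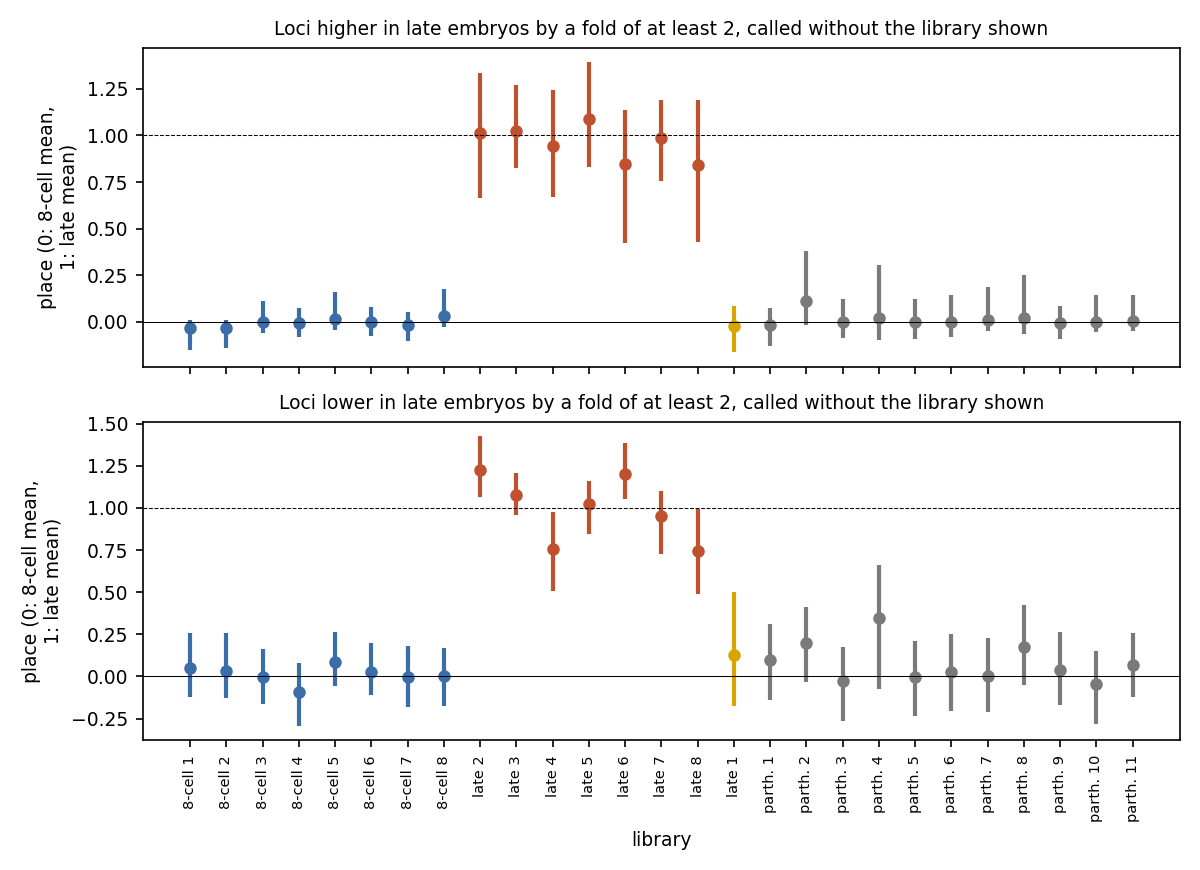
Place of each library at loci called higher (top) or lower (bottom) in late embryos by a fold of at least 2, where 0 is the 8-cell mean and 1 the late mean; points are medians over loci and bars are quartiles. Each library of the comparison is placed by a fit without it. Late replicates 2 to 8 lie between 0.745 and 1.23, and late replicate 1 lies at -0.022 and 0.130.

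Late libraries varied more among themselves than 8-cell libraries did. The median standard deviation of log2(FPKM + 1) over tested loci was 0.32 in 8-cell IVF and 0.54 in late replicates 2 to 8, and 75.02% of loci had the larger value in the late group, a difference given with no test. It was 0.52 in the late group without the shallow replicate 6. At 10 to 100 FPKM the medians were 0.31 and 0.70 over 2129 loci, and at 100 FPKM or more 0.30 and 0.73 over 198 loci, so the difference was not limited to loci of few reads. Relative depth was also more uneven in the late group, and its part in the spread was not tested.

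A set of 5 measures of a whole library was tested between the groups by exact permutation of the libraries (6435 assignments, two-sided, adjusted over 5 measures). At 10 FPKM or more there were 2057 ± 83.4 (SD, n = 8) loci in 8-cell IVF and 2333 ± 193 (SD, n = 7) in late embryos (difference 276, exact permutation test, adjusted p = 0.0124). It was 2023 in late replicate 1, and with that library the difference was 237 (adjusted p = 0.042, exact permutation test). This difference did not pass after each library was rescaled to the same FPKM sum (92.5 loci, adjusted p = 0.147, exact permutation test), nor with the transcripts of a locus summed (46.1 loci, adjusted p = 0.711, exact permutation test). The FPKM sum over loci was itself higher in late embryos, at 176893 ± 17863 (SD, n = 7) against 159360 ± 2857 (SD, n = 8) (adjusted p = 0.0183, exact permutation test), but not with late replicate 1 (adjusted p = 0.107, exact permutation test). Loci at 1 FPKM or more numbered 11400 ± 1257 (SD, n = 7) in late and 12239 ± 850 (SD, n = 8) in 8-cell embryos, a difference of -840 that did not meet the threshold (adjusted p = 0.2497 by exact permutation). It was -514 without late replicate 6 (adjusted p = 0.399, exact permutation test), and -1529 with libraries rescaled to the same FPKM sum, which passed (adjusted p = 0.0319, exact permutation test). The count of highest loci that together hold 50% of the FPKM sum was 293 ± 63.9 (SD, n = 7) in late and 268 ± 50.5 (SD, n = 8) in 8-cell embryos (adjusted p = 0.444, exact permutation test). Loci with 1 transcript held 50.9% ± 2.1 (SD, n = 7) of the sum in late and 51.6% ± 0.98 (SD, n = 8) in 8-cell embryos (adjusted p = 0.444, exact permutation test).

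Fitted transcript by transcript, 15092 transcripts were higher (37.6%) and 16528 lower (41.2%), 78.8% of the 40130 tested, or 72.6% with late replicate 1. Of 7132 loci with several tested transcripts, 2269 had each of them higher, 2888 had each of them lower and 164 had a transcript higher and another lower.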

How the data were processed

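RNA with a poly(A) tail was made into libraries with the SMART-Seq v4 kit and Nextera XT, per the labels' protocols. FPKM values of assembled transcripts were made and deposited by the authors. FastQC 0.10.1, TopHat2 2.1.0 and StringTie are named in the submitters' processing notes; the genome build, annotation, filters and role of each tool are not given in any source used here. FPKM hides read numbers, so no count test was run and no counting error is given. Strand is not stated, so overlapping antisense loci cannot be separated.

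Of 173449 transcripts at 116933 loci, the transcript with the highest average over 27 libraries stood for its locus, with 0 columns left unused. A locus was tested if 4 or more of the 15 libraries reached 1 FPKM. Tests used limma 3.58.1 in R 4.3.3 on log2(FPKM + 1), a scale that understates changes of low loci, with trend and robust settings (two-sided, threshold 0.05). Other values used Python 3.11.15 and numpy 2.4.6. Relative depths were fitted to ratios of low transcripts, and 95.7% of library pairs lay within 0.03 log2 of them. The limma fit and the depth estimate were tested on simulated data. The 2 loci named in each direction had the largest change among 585 higher and 624 lower loci that were called, did not overlap between groups and had at least 10 FPKM in each library of the higher group. The libraries, lists and tests were chosen with earlier results of these data known. Same-numbered libraries of the groups did not deviate together, so the fit has no block.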

Additional observations from a re-analysis of the deposited data

Results flagged for a closer look

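Among 30 sets of libraries examined for a value far from the rest, 4 held one; chance flags about 1 set in 20, or 5%. Within the 8-cell IVF libraries, MSTRG.6736 was at 0.686 FPKM in replicate 7 and MSTRG.28318 at 14.03 FPKM in replicate 5, each far above the other 7. Within the 8 libraries labelled late, replicate 1 stood far above the others at MSTRG.59785, with 656 FPKM, and at MSTRG.40885, with 33.8 FPKM. Those 2 follow from the choice of loci, which had the largest fall in a fit that left this library out for its profile, and are not to be set against the rate of chance.

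Parthenotes were outside the comparison, and some of them were above every 8-cell IVF library at the rising loci. MSTRG.6736 was at 5.67, 0.745 and 0.804 FPKM in parthenote replicates 2, 3 and 4, and MSTRG.28318 was at 115.8 FPKM in parthenote replicate 2. Each of these lay below the lowest of late replicates 2 to 8. The values of MSTRG.6736 in parthenote replicates 3 and 4 were also under 1 FPKM, the minimum of the filter. So was its value in 8-cell replicate 7.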

How the results depend on the processing

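At the 4 named loci the direction and the call were the same under each alternative run. Without any 1 of the 15 libraries, the counts of called loci ran from 11149 to 11680. A minimum of 5 FPKM tested fewer loci, 5445, and gave 2177 higher (40.0%) and 2267 lower (41.6%). That is 4444 in all, or 81.6%, with 1886 and 1824 at a fold of at least 2. A minimum of 1 FPKM in 7 libraries tested 10859 loci. It gave 3265 higher (30.1%) and 5031 lower (46.3%), 76.4% in all. A pseudocount of 0.1 gave 6005 lower loci at a fold of at least 2, and 1930 higher and 1765 lower at a fold of at least 8. A pseudocount of 5 gave 1441 higher and 1100 lower loci at a fold of at least 2, and 117 and 36 at a fold of at least 8, which follows from how the pseudocount shrinks or widens folds. With late replicate 1, 265 loci were higher and 102 lower at a fold of at least 8, and the FPKM sum differed by 14320 (adjusted p = 0.107, exact permutation test). Summing the transcripts of a locus gave 340 lower loci at a fold of at least 8. It also moved the difference in loci at 10 FPKM to 46.1, that in loci holding 50% of the sum to -19.4, and that in the share of loci with 1 transcript to -2.02 percentage points (adjusted p = 0.0377, exact permutation test); the cause was not tested. It raised the difference in the FPKM sum to 59890 (adjusted p = 0.000777, exact permutation test), since sums then run over each transcript. With no filter 55724 transcripts were called, 42.1% of those tested. The difference in detected loci was 195 at a minimum of 5 FPKM and -1924 at 0.1 FPKM (adjusted p = 0.309 and 0.444, exact permutation tests). After rescaling to the same sum, an alternative added after seeing the data, it was -1529 at 1 FPKM (adjusted p = 0.0319, exact permutation test) and 92.5 at 10 FPKM; the cause was not tested.

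The replicate block, over the 7 numbers both groups have, gave 4794 higher and 6410 lower loci. Deviations of same-numbered libraries correlated at -0.0432 to 0.0759, and 2 of 7 late libraries correlated best with their own number. Depth limits loci of few reads, above all in late replicate 6.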
